A study of Mus musculus with 9 samples.

Results

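The 10 genes described here, Eng, Acvrl1, Bmpr2, Tgfbr1, Tgfbr2, Smad1, Smad6, Smad7, Id1 and Id3, encode receptors, signal transducers, inhibitors and targets of TGF-beta and BMP signalling in endothelium. They were chosen by name from 23420 genes of the deposited expression matrix, and all 10 passed the low-count filter that left 13317 genes for testing. RNA was sequenced from brain endothelial cells sorted as CD31+CD45- from C57BL/6 mice labelled as males of 6 months, with 20000 cells collected for a library and Smart-seq2 used to make cDNA. The groups were APP/PS1xRIPK1KD (APP/PS1 mice that also carry the RIPK1KD allele), APP/PS1 (transgenic mice used as an amyloid model of Alzheimer's disease) and WT, with 3 libraries each. APP/PS1xRIPK1KD and APP/PS1 share the APP/PS1 transgenes. The promoter of the transgenes, the nature of the RIPK1KD allele and whether mice were pooled are not given in the sources used here. If libraries of a group are not separate mice, the p-values below measure only the spread between these samples.

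Ligands of the TGF-beta family bring together a type II and a type I receptor kinase, and the activated type I receptor phosphorylates receptor Smads that enter the nucleus with Smad4. In endothelium, circulating BMP9 and BMP10 act mainly through the type I receptor ALK1 (Acvrl1) with the type II receptor Bmpr2 and the co-receptor endoglin (Eng), and signal to Smad1 and its relatives. TGF-beta acts through Tgfbr2 and the type I receptor ALK5 (Tgfbr1). Smad6 and Smad7 are inhibitory Smads induced by the pathway they restrain, and Id1 and Id3, inhibitors of helix-loop-helix transcription factors, are direct targets of BMP signalling. Mutations of human ENG and ACVRL1 cause hereditary haemorrhagic telangiectasia, a disease of vascular malformations.

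Promoter windows of Acvrl1, Smad7 and Id1 were not searched. The windows used ran from 250 bases before to 50 bases after the RefSeq start on GRCm38.p6, for the other 7 of the 10 genes, in 8 windows. They are shown for the main co-receptor, the TGF-beta receptor pair and an inhibitory Smad, because the members' values below are read by these roles and the starts coincide, or nearly so, with those of the gene annotation. Capitals mark matches, on either strand, to GGCGCC (a GC-rich Smad element), to CAGAC or its complement GTCTG (the Smad-binding element), or to GTCTAGAC (a palindrome of the Smad-binding core, which was chosen after the sequence was seen). The Eng window is chr2:32646345-32646644 on the plus strand, the Tgfbr1 window chr4:47352972-47353271 on the plus strand, the Tgfbr2 window chr9:116175314-116175613 on the minus strand and the Smad6 window chr9:64022010-64022309 on the minus strand.
Eng: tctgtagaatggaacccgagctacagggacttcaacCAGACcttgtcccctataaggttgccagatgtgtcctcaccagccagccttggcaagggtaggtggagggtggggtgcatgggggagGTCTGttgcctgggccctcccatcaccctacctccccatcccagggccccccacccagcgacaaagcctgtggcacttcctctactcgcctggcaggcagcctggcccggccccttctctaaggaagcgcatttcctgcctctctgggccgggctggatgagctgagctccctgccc
Tgfbr1: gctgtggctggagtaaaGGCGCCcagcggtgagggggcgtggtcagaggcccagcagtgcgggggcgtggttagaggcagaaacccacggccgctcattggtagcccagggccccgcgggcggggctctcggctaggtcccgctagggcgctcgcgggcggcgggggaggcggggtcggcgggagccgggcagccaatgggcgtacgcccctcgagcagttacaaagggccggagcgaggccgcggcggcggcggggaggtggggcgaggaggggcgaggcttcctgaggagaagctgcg
Tgfbr2: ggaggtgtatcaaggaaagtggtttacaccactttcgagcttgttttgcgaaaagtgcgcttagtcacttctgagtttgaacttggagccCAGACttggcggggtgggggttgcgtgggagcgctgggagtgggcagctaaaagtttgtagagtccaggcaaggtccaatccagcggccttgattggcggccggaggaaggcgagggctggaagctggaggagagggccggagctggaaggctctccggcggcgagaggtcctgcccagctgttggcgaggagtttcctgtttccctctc
Smad6: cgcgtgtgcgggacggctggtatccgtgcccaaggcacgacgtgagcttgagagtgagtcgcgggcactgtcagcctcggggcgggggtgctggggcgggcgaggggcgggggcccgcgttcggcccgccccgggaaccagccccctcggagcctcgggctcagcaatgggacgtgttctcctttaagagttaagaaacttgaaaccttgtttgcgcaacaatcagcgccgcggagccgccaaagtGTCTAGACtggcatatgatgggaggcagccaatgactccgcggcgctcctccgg

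The Smad-binding element was present in 4 of 8 member windows, against 49.6% of 32851 promoter windows of the mouse. GGCGCC was present in 2 of 8, in the Tgfbr1 window shown and in that of Bmpr2, against 11.9% of all windows. The E-box CACGTG, also searched, was in 0 of 8 against 7.15%. The palindrome lay only in the Smad6 window among the 8, at position -4 when the first transcribed base is counted as 0, and 0.213% of all windows held it. No match in the windows shown overlapped a match to another motif, and a match is a description of the letters, not of binding.

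In the gene annotation (GENCODE M21, GRCm38) all the members are protein-coding, and positions are given for all but Smad7. Eng lies at chr2:32646595-32682669, Acvrl1 at chr15:101128522-101145336, Bmpr2 at chr1:59763400-59879014, Tgfbr1 at chr4:47353222-47414931, Tgfbr2 at chr9:116084293-116175360, Smad1 at chr8:79338395-79399518, Smad6 at chr9:63953076-64022059, Id1 at chr2:152736251-152737410 and Id3 at chr4:136143497-136145755.

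Libraries held 16263792 to 52413200 expected counts (median 46603518), the lowest in replicate 1 of APP/PS1, and 15.8% to 33.8% of the counts lay on Rn45s, a ribosomal RNA locus. The Rn45s share was 20.2% to 26.4% in APP/PS1xRIPK1KD, 15.8% to 28.6% in APP/PS1 and 29.65% to 33.8% in WT. Every WT library thus lay above every library of the other genotypes. Removal of Rn45s was among the alternatives fitted, and no member was called with it. All libraries were labelled male, but replicates 1 and 2 of every genotype (6 libraries) had 263.9 to 533.4 CPM (counts scaled to library size) of Xist and at most 0.434 CPM of summed Y-linked genes, whereas replicate 3 of every genotype had 149.8 to 184.7 CPM of Y-linked genes and at most 4.77 CPM of Xist. The split is the same in each genotype, and log2 fold changes fitted to replicates 1 and 2 alone are given with each member where they changed sign or moved by over 1.5 times. Ripk1 itself had 31.4, 44.9 and 35.5 CPM in APP/PS1xRIPK1KD, against 75.3, 52.9 and 40.9 CPM in APP/PS1 and 45.0, 48.1 and 34.9 CPM in WT (replicates 1, 2 and 3 in this order, as below), so the groups overlapped and the Ripk1 level does not check the RIPK1KD label. The summed CPM of 14 endothelial markers was 23640 to 25780 in APP/PS1xRIPK1KD, 23440 to 26810 in APP/PS1 and 24900 to 27260 in WT. Markers of mural cells (16 genes) summed to 105.0 to 411.4, 275.9 to 353.7 and 38.2 to 159.6 CPM in APP/PS1xRIPK1KD, APP/PS1 and WT. In bulk RNA, fewer cells of a type and less RNA per cell cannot be told apart.

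Per kilobase of exon, the members spanned a wide range, and the targets and the endothelial receptors lay at the top. Id1 averaged 956 ± 140 CPM per kb and Id3 averaged 710 ± 53.3 CPM per kb (SD over 9 libraries here and in the next 3 sentences). Eng, at 434 ± 56.8 CPM per kb, and Acvrl1, at 179 ± 18.1 CPM per kb, were the highest receptors. Tgfbr2 followed at 56.4 ± 5.85 CPM per kb. The remaining members were lower, with Smad7 at 11.7 ± 2.74, Smad6 at 7.76 ± 2.30, Tgfbr1 at 3.54 ± 0.862, Smad1 at 3.44 ± 1.01 and Bmpr2 at 2.13 ± 0.285 CPM per kb. Each member was higher than the next in all 9 libraries, except that Tgfbr1 was above Smad1 in 6 of 9. The ranges of neighbours overlapped for Id1 and Id3, for Smad7 and Smad6, for Smad6 and Tgfbr1, for Tgfbr1 and Smad1, and for Smad1 and Bmpr2. The low place of Bmpr2 depends on its exon length of 17983 bases, the longest of the members. In CPM it averaged 38.3, above Smad6 at 24.9, Tgfbr1 at 23.1 and Smad1 at 21.6. The level of Bmpr2 also differs between the deposited files. The authors' deposited table of APP/PS1 over WT gives Bmpr2 a level of 8.10 as log2 CPM, whereas the mean level in the matrix is 5.26 on the log2 CPM scale. That is 4.8-fold beyond the median shift between the table and the matrix, while the other 9 members lie within 0.935- to 1.08-fold of it. Such gaps are not particular to Bmpr2, since 3.76% of 11541 shared genes lie more than 1 log2 unit above the median shift and 4.29% as far below it.

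**Figure D1:**
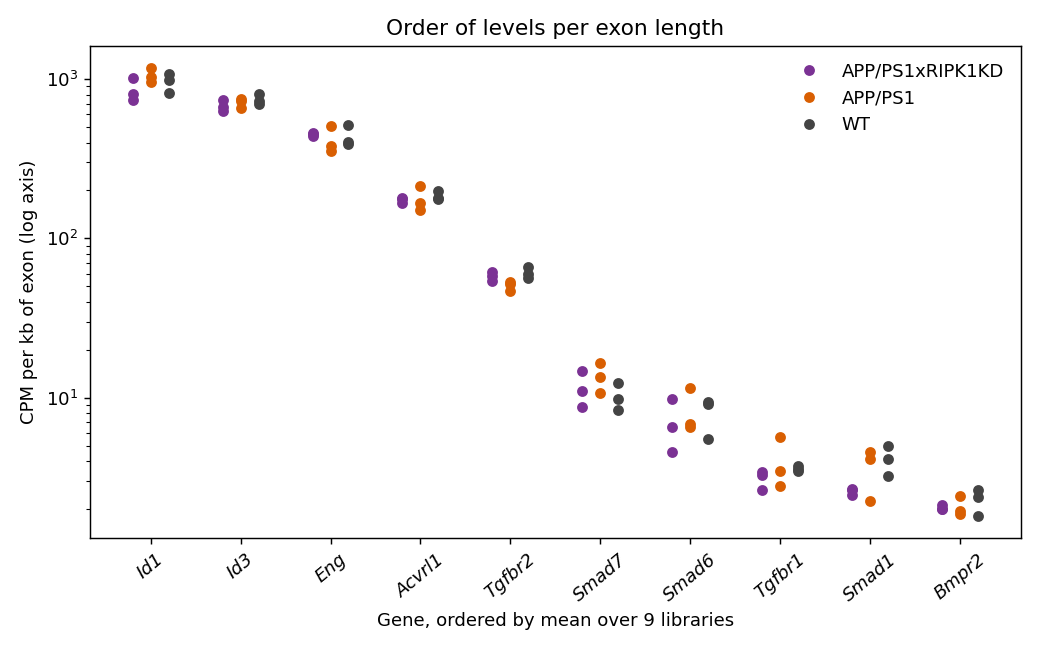
Levels of the 10 genes in CPM per kb of exon on a log axis, with 1 point for each of the 9 libraries, coloured by genotype and ordered by the mean. Id1 and Id3 are highest, and Smad1 and Bmpr2 lie lowest, at 3.44 and 2.13 CPM per kb on average.

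Between genotypes, none of the 10 members passed a false discovery rate (FDR) of 0.05 in edgeR's quasi-likelihood test with Benjamini-Hochberg adjustment over 13317 genes. The genes called over the whole table were 3, or 0.0225%, in APP/PS1 against WT. They were 1, or 0.00751%, in APP/PS1xRIPK1KD against APP/PS1, and 5, or 0.0375%, in APP/PS1xRIPK1KD against WT. DESeq2 called 0 members in each comparison, against 0.34%, 0.151% and 0.475% of all genes in the same order, and limma-voom called 0 members, against 0.015%, 0% and 0.015%. At an unadjusted p under 0.05, the members counted 1, 0 and 1 in the same order of comparisons, against 6.14%, 4.78% and 6.18% of all tested genes. The member below that p was Tgfbr2 in APP/PS1 against WT and Smad1 in APP/PS1xRIPK1KD against WT. Of the 10, 4, 2 and 2 had a log2 fold change above 0, against 50.2%, 49.4% and 50.6% of all genes. Non-overlapping libraries were found in 0 members above and 1 below WT in APP/PS1 (5.43% and 5.44% of all genes), in 1 above and 0 below APP/PS1 in APP/PS1xRIPK1KD (5.32% and 4.66%), and in 0 above and 2 below WT in APP/PS1xRIPK1KD (6.05% and 5.99%). The members' median log2 fold change was -0.07 in APP/PS1 against WT, -0.15 in APP/PS1xRIPK1KD against APP/PS1 and -0.15 in APP/PS1xRIPK1KD against WT, against 0.0019, -0.0034 and 0.0031 over all tested genes. The comparisons share libraries, so they are not independent of each other.

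**Figure D2:**
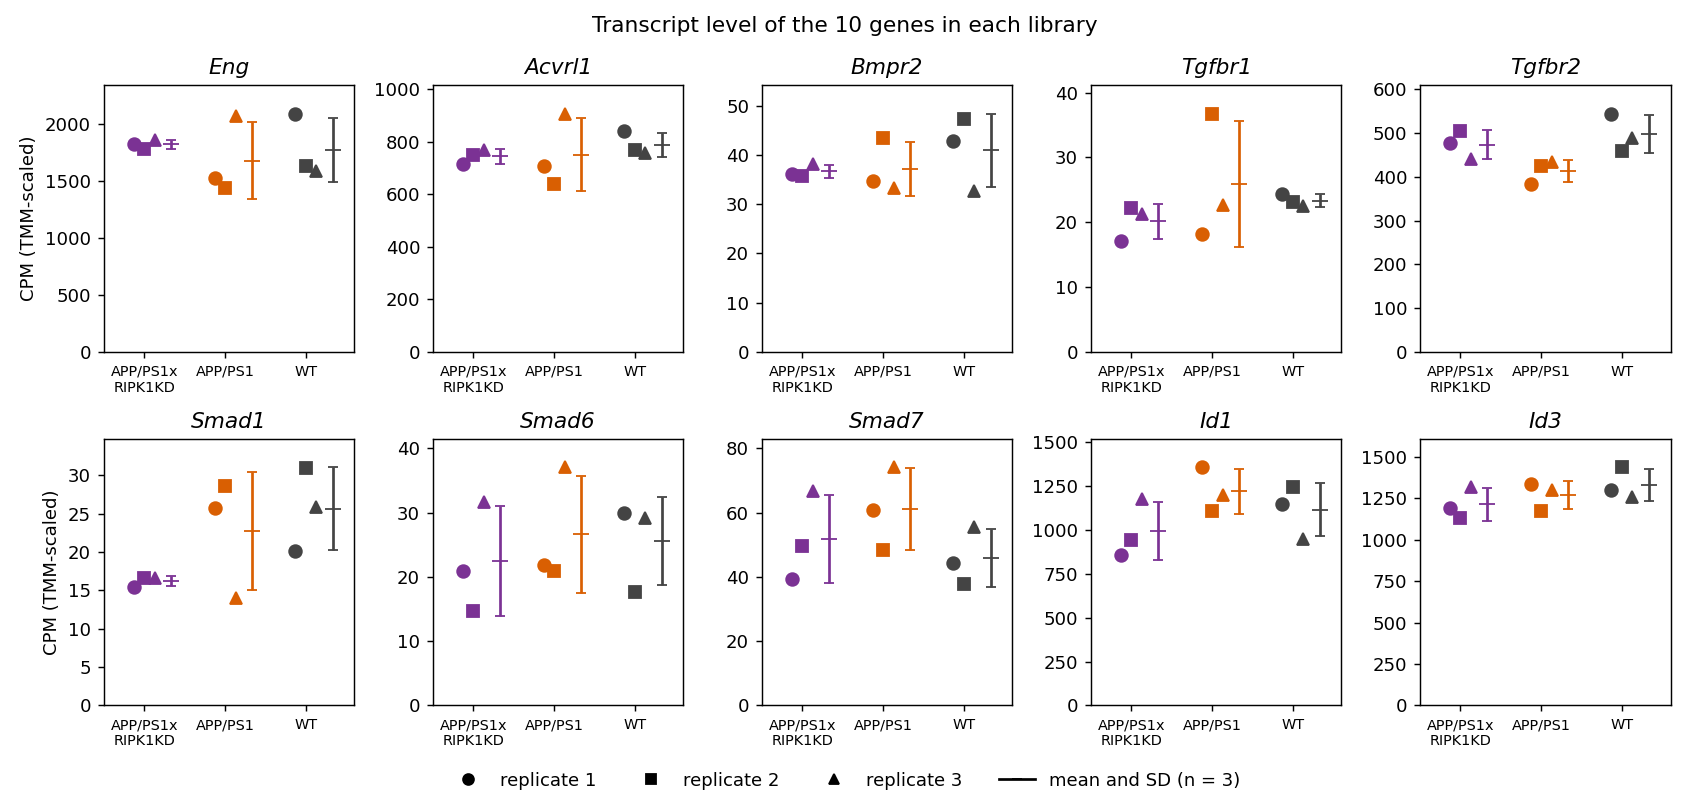
CPM of each gene in every library (points, shaped by replicate number) with the mean and SD of 3 libraries beside them, for APP/PS1xRIPK1KD, APP/PS1 and WT. Tgfbr2 in APP/PS1, at 385 to 433 CPM, lies below the other genotypes, and Smad1 in APP/PS1xRIPK1KD, at 15.4 to 16.7 CPM, lies below WT.

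Among the receptors of the BMP arm, the genotypes overlapped. Eng, the co-receptor, had 1830, 1780 and 1860 CPM in APP/PS1xRIPK1KD, 1532, 1438 and 2069 CPM in APP/PS1, and 2094, 1633 and 1590 CPM in WT. The spread between libraries of APP/PS1 and of WT was wider than the differences of the means. Eng differed by a log2 fold change of -0.08 ± 0.15 in APP/PS1 against WT (standard error, edgeR adjusted p = 0.98), and by 0.12 ± 0.15 in APP/PS1xRIPK1KD against APP/PS1 (adjusted p = 1.00). With replicates 1 and 2 only, Eng was -0.33 ± 0.14 in APP/PS1 against WT (edgeR adjusted p = 0.441), 0.28 ± 0.14 in APP/PS1xRIPK1KD against APP/PS1 and -0.046 in APP/PS1xRIPK1KD against WT, and both APP/PS1 libraries then lay below all others. Acvrl1, which encodes the type I receptor ALK1, had 715, 750 and 770 CPM in APP/PS1xRIPK1KD, 707, 641 and 908 CPM in APP/PS1, and 840, 769 and 756 CPM in WT. Bmpr2, the type II receptor, had 36.2, 35.7 and 38.1 CPM in APP/PS1xRIPK1KD, 34.7, 43.5 and 33.3 CPM in APP/PS1, and 42.8, 47.4 and 32.7 CPM in WT. For Acvrl1 and Bmpr2 too the libraries of the genotypes interleaved, with log2 fold changes in APP/PS1 against WT of -0.07 and -0.14. With replicates 1 and 2 only, the APP/PS1 libraries of Acvrl1 lay below all others, with -0.26 ± 0.13 in APP/PS1 against WT (edgeR adjusted p = 0.492), 0.12 in APP/PS1xRIPK1KD against APP/PS1 and -0.14 in APP/PS1xRIPK1KD against WT. For Bmpr2 it gave -0.12 in APP/PS1xRIPK1KD against APP/PS1 and -0.33 in APP/PS1xRIPK1KD against WT, against -0.02 and -0.16 with all libraries. The 95% interval for the fold of APP/PS1 over WT was 0.753 to 1.19 for Eng, 0.778 to 1.17 for Acvrl1 and 0.692 to 1.19 for Bmpr2. For Bmpr2 the authors' deposited table gives a log2 fold change of 0.31 in APP/PS1 over WT (p = 0.110, FDR 0.893), the opposite sign to the matrix, whereas for the other 9 members the sign is the same in both. That table calls 0 of the 10 members and 26 of its 12460 genes, or 0.209%.

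Among the TGF-beta receptors, Tgfbr2 had the smallest p of the members in APP/PS1 against WT. It had 477, 505 and 441 CPM in APP/PS1xRIPK1KD, 385, 424 and 433 CPM in APP/PS1, and 545, 458 and 489 CPM in WT. Every APP/PS1 library lay below every library of the other genotypes, while APP/PS1xRIPK1KD and WT overlapped. The log2 fold change was -0.26 ± 0.12 in APP/PS1 against WT (fold 0.832, 95% interval 0.697 to 0.994, edgeR adjusted p = 0.795). It was 0.20 ± 0.12 in APP/PS1xRIPK1KD against APP/PS1 (edgeR adjusted p = 1.00). In APP/PS1xRIPK1KD against WT it was -0.07, and -0.03 with replicates 1 and 2 only. Of the 14 endothelial markers, 12 had a log2 fold change below 0 in APP/PS1 against WT, with a median of -0.08, and 10 were above 0 in APP/PS1xRIPK1KD against APP/PS1. The summed mural markers of APP/PS1 lay above those of WT without overlap, none of the 16 was at 0 in a whole genotype, and the part of either list in the Tgfbr2 values was not tested. Tgfbr1, the type I partner, had 17.1, 22.2 and 21.2 CPM in APP/PS1xRIPK1KD, 18.3, 36.8 and 22.7 CPM in APP/PS1, and 24.4, 23.2 and 22.5 CPM in WT. Replicate 2 of APP/PS1 stood high, and the APP/PS1xRIPK1KD libraries lay just below those of WT without overlap (log2 fold change -0.21 ± 0.25, edgeR adjusted p = 0.988).

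Smad1, a receptor Smad of the BMP arm, had 15.4, 16.7 and 16.6 CPM in APP/PS1xRIPK1KD, 25.7, 28.6 and 14.1 CPM in APP/PS1, and 20.2, 31.0 and 25.8 CPM in WT. The APP/PS1xRIPK1KD libraries lay close together and all below WT, while the APP/PS1 libraries spread across both. Smad1 differed by a log2 fold change of -0.66 ± 0.27 in APP/PS1xRIPK1KD against WT (fold 0.632, 95% interval 0.421 to 0.947, edgeR adjusted p = 0.756). Smad1 and Tgfbr1 were the 2 members whose APP/PS1xRIPK1KD libraries lay below WT without overlap. Against APP/PS1 the log2 fold change was -0.49 ± 0.27 (edgeR adjusted p = 1.00). With replicates 1 and 2 only it was -0.76 ± 0.28 (edgeR adjusted p = 0.505), and both APP/PS1 libraries then lay above APP/PS1xRIPK1KD. In APP/PS1 against WT it was -0.17 ± 0.27, and 0.09 with replicates 1 and 2 only.

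The inhibitory Smads, which restrain the pathway, were highest in replicate 3 in most genotypes. Smad7 had 39.4, 49.6 and 66.7 CPM in APP/PS1xRIPK1KD, 60.9, 48.5 and 74.2 CPM in APP/PS1, and 44.2, 38.0 and 55.7 CPM in WT. Smad6 had 21.0, 14.7 and 31.6 CPM in APP/PS1xRIPK1KD, 21.8, 20.9 and 37.1 CPM in APP/PS1, and 29.9, 17.7 and 29.1 CPM in WT. Replicate 3, the replicate with Y-linked RNA, held the highest Smad7 of each genotype, and the highest Smad6 of 2 of 3 genotypes. Between genotypes, Smad7 differed by a log2 fold change of 0.41 ± 0.22 in APP/PS1 against WT (fold 1.33, 95% interval 0.949 to 1.87, edgeR adjusted p = 0.829), with libraries that overlapped. Within each replicate number, APP/PS1 lay above WT in 3 of 3, and replicates 1 and 2 only gave 0.41 ± 0.21. Smad7 in APP/PS1xRIPK1KD against WT was 0.18, and 0.12 with replicates 1 and 2 only. Smad6 differed by 0.06 ± 0.32 in APP/PS1 against WT, and by -0.16 with replicates 1 and 2 only. In APP/PS1xRIPK1KD against WT, Smad6 was -0.19 with all libraries and -0.42 with replicates 1 and 2 only. A comparison of replicate 3 with replicates 1 and 2, within genotype, was added after the values were seen. It gave Smad7 65.5 ± 9.29 CPM in replicate 3 (SD, n = 3) and 46.8 ± 8.34 CPM in replicates 1 and 2 (SD, n = 6), a log2 fold change of 0.49 ± 0.14 (edgeR adjusted p = 0.757). It gave Smad6 32.6 ± 4.08 CPM and 21.0 ± 5.13 CPM, a log2 fold change of 0.64 ± 0.21 (edgeR adjusted p = 0.770). Neither passed an FDR of 0.05, which 0.0375% of all genes passed in this comparison, and the other 8 members had an adjusted p of 1. Sex and any other feature that replicate 3 shares across genotypes cannot be told apart.

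**Figure D3:**
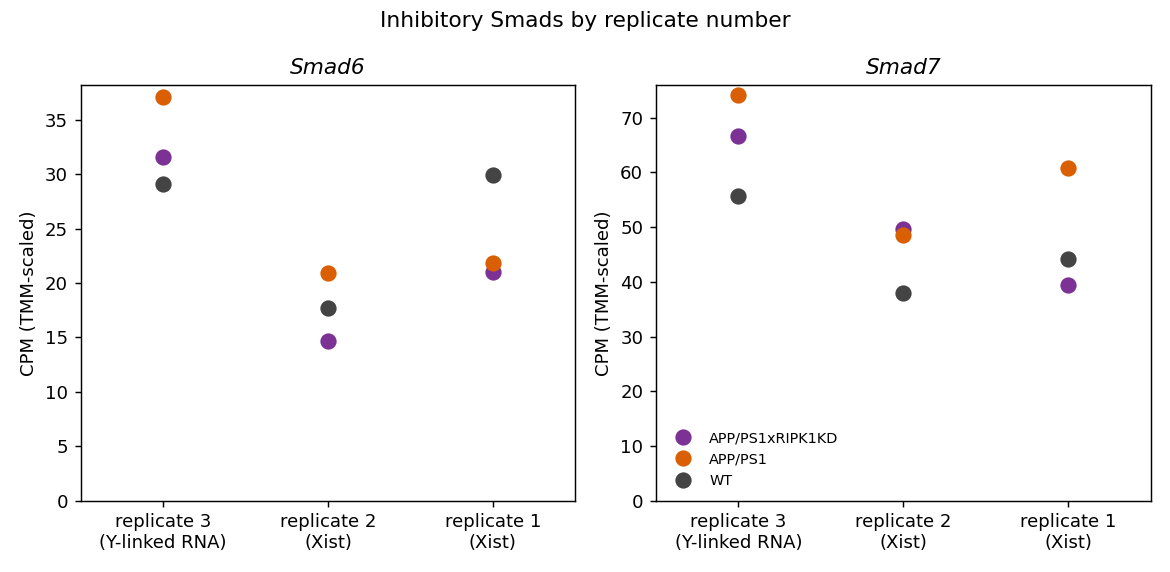
CPM of Smad6 and Smad7 by replicate number, with replicate 3 at the left and 1 point per library coloured by genotype. Smad7 in replicate 3 was 55.7 to 74.2 CPM, the highest value of each genotype.

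Id1 and Id3 were the most abundant members per kilobase. Id1 had 858, 941 and 1178 CPM in APP/PS1xRIPK1KD, 1358, 1106 and 1198 CPM in APP/PS1, and 1149, 1245 and 949 CPM in WT. Id3 had 1189, 1129 and 1321 CPM in APP/PS1xRIPK1KD, 1335, 1175 and 1303 CPM in APP/PS1, and 1299, 1438 and 1257 CPM in WT. The genotypes overlapped for both genes. Id1 differed by a log2 fold change of -0.30 ± 0.15 in APP/PS1xRIPK1KD against APP/PS1 (fold 0.813, 95% interval 0.649 to 1.02, edgeR adjusted p = 1.00), and by 0.13 ± 0.15 in APP/PS1 against WT. With replicates 1 and 2 only, Id1 was -0.45 ± 0.14 in APP/PS1xRIPK1KD against APP/PS1 (edgeR adjusted p = 0.459) and 0.04 in APP/PS1 against WT. In APP/PS1xRIPK1KD against WT, Id1 was -0.17 with all libraries and -0.41 with replicates 1 and 2 only, where both APP/PS1xRIPK1KD libraries lay below all others. Id3 differed by -0.07 ± 0.11 in APP/PS1xRIPK1KD against APP/PS1 and in APP/PS1 against WT, and by -0.13 in APP/PS1xRIPK1KD against WT. With replicates 1 and 2 only, Id3 was -0.115, -0.13 and -0.24 in these 3 comparisons. The ratio of Id1 to Id3 per kilobase was 1.11, 1.29 and 1.38 in APP/PS1xRIPK1KD, 1.57, 1.45 and 1.42 in APP/PS1, and 1.37, 1.34 and 1.17 in WT. The APP/PS1 ratios lay above those of both other genotypes without overlap, and this ratio, chosen from the members, has no test. Ratios of Smad6 and of Smad7 to Smad1 per kilobase were also computed. Smad6 over Smad1 overlapped between all genotypes. Smad7 over Smad1 was 3.54 to 5.57 in APP/PS1xRIPK1KD, 2.35 to 7.3 in APP/PS1 and 1.7 to 3.04 in WT. The share of all gene pairs whose ratios separate genotypes in this way was not computed. Immediate early genes, which respond within minutes to stimulation or tissue dissociation, stood at 1441 to 2148 CPM summed over 18 genes in APP/PS1xRIPK1KD, 1956 to 3133 CPM in APP/PS1 and 1360 to 2161 CPM in WT. Of these 18, 17 had a log2 fold change below 0 in APP/PS1xRIPK1KD against APP/PS1, and their part in the Id1 values was not tested.

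**Figure D4:**
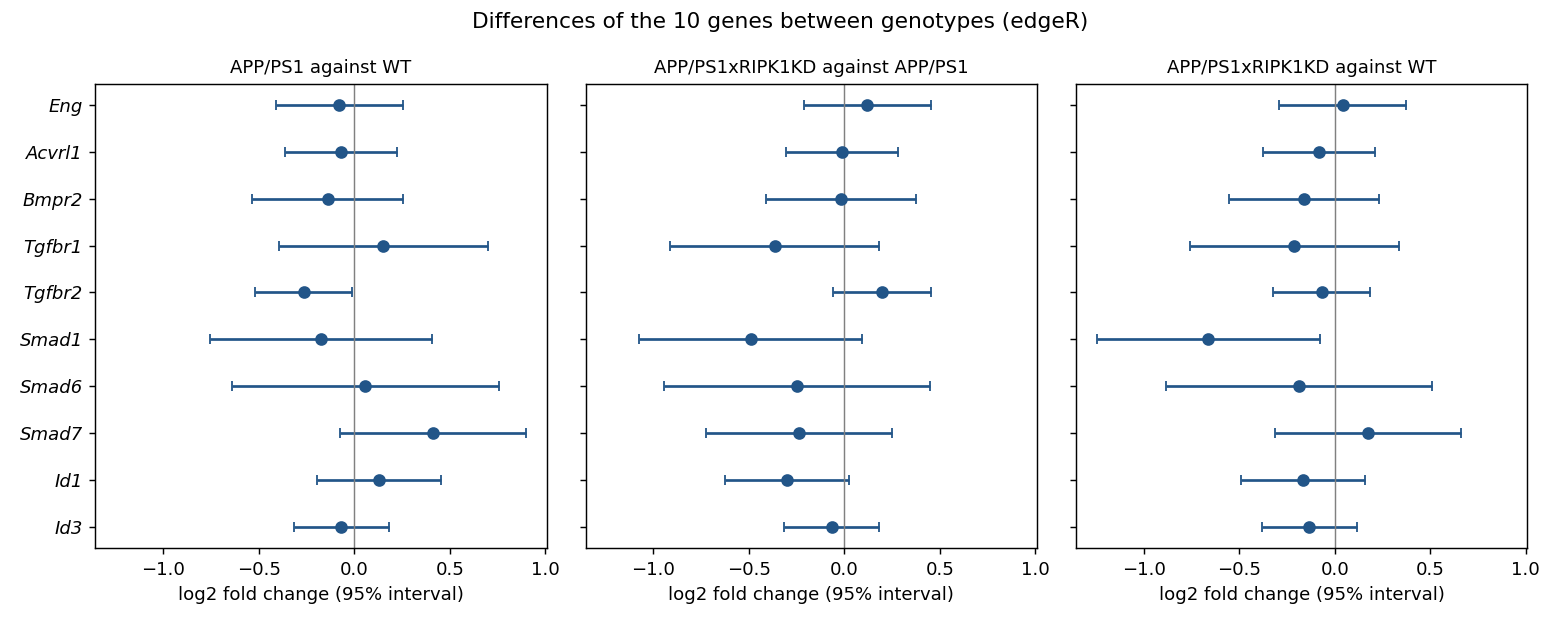
Log2 fold changes of the 10 genes with 95% intervals, in 3 comparisons. The interval leaves out 0 for Tgfbr2 in APP/PS1 against WT and for Smad1 in APP/PS1xRIPK1KD against WT, and neither passed the FDR threshold.

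Pairs of members differed in how alike their patterns across the libraries were. All pairs were ranked by the root mean square difference of standardised log2 CPM over 9 libraries. The closest were Eng and Acvrl1 (0.525), Id1 and Id3 (0.668) and Smad6 and Smad7 (0.811). The furthest apart were Eng and Smad1 (1.78). The Eng to Acvrl1 ratio per kilobase was 2.7, 2.5 and 2.55 in APP/PS1xRIPK1KD, 2.28, 2.36 and 2.40 in APP/PS1, and 2.62, 2.24 and 2.22 in WT. APP/PS1xRIPK1KD lay above APP/PS1 without overlap, with no test and no share over all gene pairs to set beside it. Of 9716 genes, the most similar in pattern to Eng were Anapc2 (0.258), Pex6 (0.308) and Lipt2 (0.319), where the median over all genes was 1.32. Those most similar to Id1 were Nbl1 (0.309), Ran (0.326) and Ap4b1 (0.332), where the median was 1.34. With 9 libraries, and the same library sizes behind every gene, these distances are a description.

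The other genes of the pathway, 68 in number and grouped by role, were all in the matrix, and 55 passed the filter. None of the 55 passed an FDR of 0.05 in any comparison by edgeR or limma-voom, and DESeq2 called 1, Angpt2 in APP/PS1 against WT, where it called 45 of 13251 genes (0.34%). At an unadjusted p under 0.05, 6 were higher and 0 lower in APP/PS1 against WT (3.49% and 2.65% of all genes), 2 were higher and 2 lower in APP/PS1xRIPK1KD against APP/PS1 (2.44% and 2.34%), and 5 were higher and 2 lower in APP/PS1xRIPK1KD against WT (2.97% and 3.21%). The median log2 fold change of the 55 was 0.13, -0.05 and 0.05 in the same order. Of the genes counted as higher than WT, Bmpr1a and Rgma had low levels. Bmpr1a, counted in APP/PS1, averaged 1.49 CPM there and 0.1735 CPM in WT. Rgma, counted in both transgenic genotypes, averaged 0.235, 0.626 and 0 CPM in APP/PS1xRIPK1KD, APP/PS1 and WT. Among ligands, Gdf2 and Bmp10, which encode BMP9 and BMP10, had 0 counts in all 9 libraries, which allows up to 0.0541 to 0.189 CPM by a limit of 3 counts per library. Tgfb2 was 102.2, 106.8 and 97.6 CPM in APP/PS1xRIPK1KD, 65.5, 48.6 and 81.6 CPM in APP/PS1, and 61.5, 61.3 and 94.7 CPM in WT. The APP/PS1xRIPK1KD libraries lay above all others (log2 fold change 0.65 ± 0.21 against APP/PS1, edgeR adjusted p = 0.980). The 6 choroid plexus markers summed to 172 to 306 CPM in APP/PS1xRIPK1KD, 53.1 to 144 CPM in APP/PS1 and 41.5 to 68.3 CPM in WT. These sums were also highest in APP/PS1xRIPK1KD without overlap. Most of each sum was Ttr, which averaged 221.8, 103.7 and 54.3 CPM in the same order of genotypes. Of the 5 markers tested, 1 lay above APP/PS1 and 3 above WT without overlap in APP/PS1xRIPK1KD (5.32% and 6.05% of all genes). The part of these markers in the Tgfb2 values was not tested. Bmp4, named here after its values were seen, was 0.673, 2.81 and 4.11 CPM in APP/PS1xRIPK1KD, 9.06, 5.89 and 13.7 CPM in APP/PS1, and 2.04, 1.21 and 2.61 CPM in WT. APP/PS1 lay above both other genotypes without overlap (log2 fold change 2.29 ± 0.63 against WT, edgeR adjusted p = 0.787). The authors' deposited table gives Bmp4 a log2 fold change of 2.16 with an FDR of 0.123. The summed mural markers also lay above WT in APP/PS1, but overlapped APP/PS1xRIPK1KD. The 7 fibroblast markers summed to 7.38 to 13.5 CPM in APP/PS1, above 2.16 to 7.26 CPM in APP/PS1xRIPK1KD and 0.132 to 1.35 CPM in WT. Of 7 oligodendrocyte markers tested, 7 had a log2 fold change above 0 in APP/PS1 against WT, with sums that overlapped. The part of these lists in the Bmp4 values was not tested.

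Among inhibitors and modulators, Pmepa1, a TGF-beta-induced gene that restrains Smad signalling, had 44.1, 43.3 and 42.7 CPM in APP/PS1xRIPK1KD, 40.8, 38.7 and 40.4 CPM in APP/PS1, and 27.4, 31.3 and 30.6 CPM in WT. All libraries of both transgenic genotypes lay above WT. Of the 16 mural markers, 13 in APP/PS1 and 9 in APP/PS1xRIPK1KD also lay above WT without overlap, and 0 lay below. The shares above WT over all genes were 5.43% and 6.05%. The summed mural markers of APP/PS1xRIPK1KD overlapped those of WT, and the part of these markers in the Pmepa1 values was not tested. The log2 fold change was 0.54 ± 0.15 in APP/PS1xRIPK1KD against WT (edgeR adjusted p = 0.552) and 0.43 ± 0.15 in APP/PS1 against WT (edgeR adjusted p = 0.787). Skil, a Smad co-repressor, had 80.1, 70.8 and 94.1 CPM in APP/PS1xRIPK1KD, 117.2, 110.6 and 64.7 CPM in APP/PS1, and 59.9, 57.2 and 70.3 CPM in WT. APP/PS1xRIPK1KD lay above WT without overlap, while APP/PS1 overlapped WT through its replicate 3. The log2 fold change of Skil was 0.64 ± 0.21 in APP/PS1 against WT (edgeR adjusted p = 0.787). Of the targets, Angpt2, a ligand that antagonises Tie2, had 22.7, 23.3 and 13.1 CPM in APP/PS1xRIPK1KD, 32.2, 26.7 and 24.8 CPM in APP/PS1, and 12.1, 12.9 and 14.9 CPM in WT. APP/PS1 lay above both other genotypes without overlap. The log2 fold change was 1.07 ± 0.25 in APP/PS1 against WT (edgeR adjusted p = 0.707), and the authors' deposited table gives 1.05 with an FDR of 0.0451. Esm1, which encodes endocan, had 89.1, 79.2 and 41.3 CPM in APP/PS1xRIPK1KD, 17.0, 41.7 and 33.2 CPM in APP/PS1, and 33.03, 53.05 and 20.24 CPM in WT, and the ranges overlapped. By CPM per kb, Ltbp4, Mgp and Tsc22d1 were the highest of the other pathway genes, at 431, 373 and 311.

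**Figure D5:**
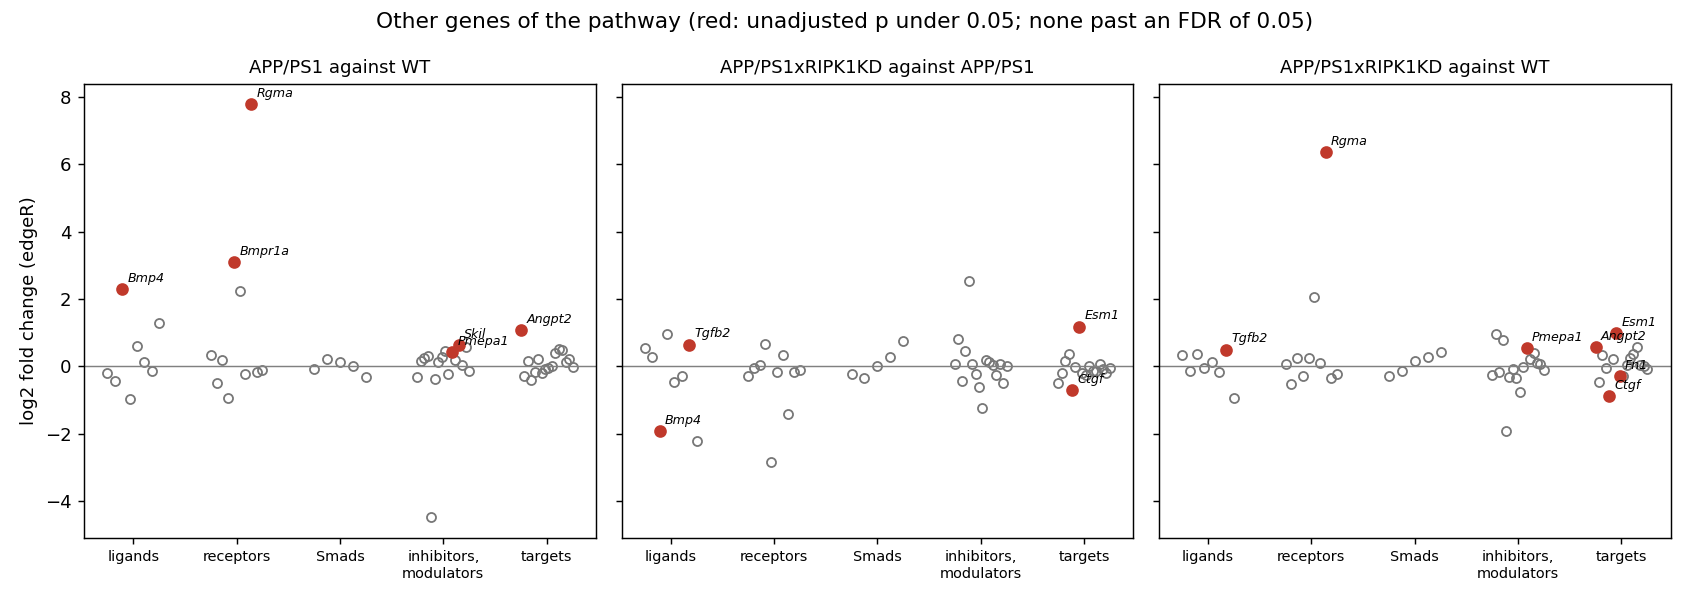
Fitted log2 fold changes of the other pathway genes by role in 3 comparisons, with genes of unadjusted p under 0.05 filled in red and named. Fits of genes near 0 counts in 1 group, such as Rgma, depend on the prior count, and no gene passed an FDR of 0.05.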

How the data were processed

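The authors deposited 1 matrix of expected counts per gene, and a table of their own APP/PS1 over WT comparison with log2 fold changes, log2 CPM levels, test scores, p-values and FDR. Per the submitters' processing notes, the tools were Bowtie 0.12.2, RSEM and edgeR 3.10.2 with mm10 and GRCm38; their roles are not stated there. Of the deposited expected counts, 28.3% were not whole, and all were rounded. In R 4.3.3, edgeR 4.0.16 filtered genes (filterByExpr, minimum count 10, minimum total 15), scaled by TMM and fitted 1 coefficient per genotype over 9 libraries (glmQLFit, robust). The 3 comparisons were tested with glmQLFTest and Benjamini-Hochberg adjustment over 13317 genes, and a standard error is the log2 fold change divided by the square root of F. CPM are TMM-scaled, and levels between genes use union exon length. Alternatives were DESeq2 1.42.0, limma 3.58.1 (voom), RLE size factors, no filter, removal of Rn45s, a replicate block, replicates 1 and 2 only, and leaving out each library. The members and lists were chosen with earlier results of these data known. All members are named; of other pathway genes, the 2 with the smallest p per role and comparison at 5 CPM or more were eligible; Bmp4 was named after its values were seen. Libraries are PCR-amplified without molecular identifiers, so the 0-count limits cover counting error only.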

Additional observations from a re-analysis of the deposited data

How the results depend on the processing

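No member was called under any alternative. Of 480 pairings of a member's genotype fold change with an alternative, 459 kept direction and side of the threshold, and 12 of 30 fold changes changed sign at least once. The counts over all genes moved more. In APP/PS1 against WT (3 genes) DESeq2 called 45 and no low-count filter 7, and leaving out 1 library gave 1 to 5. In APP/PS1xRIPK1KD against APP/PS1 (1 gene) DESeq2 called 20, and limma-voom, the replicate block and replicates 1 and 2 only called 0 each, with 0 to 4 on leaving out 1 library. In APP/PS1xRIPK1KD against WT (5 genes) DESeq2 called 63, limma-voom 2, no low-count filter 14, the replicate block 0 and replicates 1 and 2 only 8, with 2 to 9 on leaving out 1 library. In replicate 3 against replicates 1 and 2 (5 genes) no low-count filter called 182, and leaving out 1 library gave 4 to 7. The replicate block called 2 genes in APP/PS1 against WT. Each gene's mean log2 CPM in a genotype was subtracted, and the deviations left were correlated across all genes between libraries of different genotypes. Same-numbered libraries had correlations of these deviations of -0.0187 to 0.0983, and different-numbered libraries of -0.101 to 0.0817. In APP/PS1 against WT the same-numbered values, 0.0243 to 0.0391, all lay above the different-numbered ones, at most 0.00581. Such small correlations cannot decide whether the numbers pair the libraries. The numbers do separate Xist from Y-linked RNA in each genotype. With the block, Smad7 in APP/PS1 against WT was 0.41 ± 0.17 (edgeR adjusted p = 0.920). With replicates 1 and 2 only, Smad1 became 0.087 and Smad6 -0.16 in APP/PS1 against WT, Acvrl1 became 0.12 in APP/PS1xRIPK1KD against APP/PS1, and Eng became -0.046 in APP/PS1xRIPK1KD against WT (log2 fold changes). Leaving out 1 library gave, in APP/PS1 against WT, Eng -0.26 to 0.060, Acvrl1 -0.23 to 0.031, Tgfbr1 -0.19 to 0.35, Smad1 -0.37 to 0.081 and Smad6 -0.26 to 0.20. In APP/PS1xRIPK1KD against APP/PS1 it gave Acvrl1 -0.10 to 0.15, Bmpr2 -0.093 to 0.12 and Smad6 -0.57 to 0.073, and in APP/PS1xRIPK1KD against WT Eng -0.031 to 0.18, Tgfbr2 -0.12 to 0.0023, Smad6 -0.51 to 0.050 and Smad7 -0.040 to 0.35. The cause was not tested. The Tgfbr2 fold change in APP/PS1 against WT (-0.32 to -0.19) and that of Smad1 in APP/PS1xRIPK1KD against WT (-0.81 to -0.50) kept their sign in 16 of 16 alternatives.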

Other observations

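Further pathway genes were named by the rule on p-values, and none passed an FDR of 0.05. Mgp, a matrix protein that binds BMPs, averaged 263 ± 192 CPM in APP/PS1xRIPK1KD, 619 ± 217 CPM in APP/PS1 and 448 ± 257 CPM in WT (SD, n = 3 each here and below), so its libraries spread widely within each genotype. Ctgf, a TGF-beta target, averaged 32.6 ± 9.12 CPM in APP/PS1xRIPK1KD, 53.5 ± 11.3 CPM in APP/PS1 and 60.1 ± 31.1 CPM in WT. Col4a1, a basement membrane collagen, averaged 493 ± 112 CPM in APP/PS1xRIPK1KD, 379 ± 60.0 CPM in APP/PS1 and 507 ± 124 CPM in WT. Of the Smads, Smad3 averaged 27.99 ± 3.33 CPM in APP/PS1xRIPK1KD, 35.8 ± 5.37 CPM in APP/PS1 and 30.9 ± 6.91 CPM in WT, and Smad5 averaged 56.0 ± 6.26, 46.0 ± 6.33 and 45.8 ± 6.59 CPM in APP/PS1xRIPK1KD, APP/PS1 and WT. Smurf2, a ubiquitin ligase that targets the receptors and Smads, averaged 30.3 ± 5.27 CPM in APP/PS1xRIPK1KD, 42.9 ± 17.0 CPM in APP/PS1 and 28.6 ± 5.44 CPM in WT.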
